A study of Mus musculus with 24 samples.

Results

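The 36 genes described here act in DNA replication and in mitosis, and their RNA was measured in microglia sorted from 24 retinas of 15 mice. The members were the rows of the per-retina gene tables whose identifier maps to a list of replication and mitosis genes. No measured value was part of that rule, but the list was chosen with earlier results of these data known. All 36 were found among the 47729 gene identifiers of the files. DBA/2J mice (genotype Gpnmb-/- Tyrp1b-/-) were sampled at 12 months, with 10 retinas of 5 animals, and at 6 months, a stage the labels call early disease, with 1 retina of each of 5 animals. The strain DBA/2J Gpnmb+ (genotype Gpnmb+/+ Tyrp1b-/-) was sampled at 12 months, with 9 retinas of 5 animals. Every group thus carried the Tyrp1b mutation, and no animal was treated. DBA/2J is a mouse model of inherited glaucoma in which an iris disease raises the pressure in the eye with age, and the strain with working Gpnmb serves as its control of the same age. The labels grade the 12-month DBA/2J eyes as mild (3 retinas, with the added letters NOE, which they do not spell out), moderate (4 retinas) or severe (3 retinas). Animal 1 had a moderate and a severe eye, and animal 5 a mild and a moderate eye. Right eyes are OD and left eyes OS.

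Between 100 and 600 cells were sorted from a retina as CD11b-positive, Ly6c-negative and Fcrls-positive, and each retina gave 1 library. Library totals ran from 1706775 to 20081114 counts in 12-month DBA/2J, from 977886 to 14845311 in Gpnmb+ and from 12043911 to 17993059 at 6 months. A retina had counts for 10703 to 15046 genes in 12-month DBA/2J, for 3469 to 14468 in Gpnmb+ and for 13818 to 16716 at 6 months. Of 11 microglia markers, 10 had counts in all 24 retinas, and Fcrls, whose protein was used for the sort, in 18. None of the 6 neutrophil markers had a count in DBA/2J of either age, and the lymphocyte markers summed to at most 2.0 CPM (counts scaled to a common library total) in any retina. Border macrophage markers ranged from 0.0 to 366.0 CPM in 12-month DBA/2J, from 0.0 to 159.7 in Gpnmb+ and from 0.2 to 98.8 at 6 months. Rod photoreceptor markers ranged from 227.1 to 3930.5, from 216.6 to 15826.0 and from 194.3 to 1935.0 CPM. In bulk samples of this kind, fewer dividing cells and less of these RNAs per dividing cell cannot be told apart.

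Cells that enter the cycle first load the MCM helicase onto DNA, make nucleotides and copy their genome, and then switch on cyclins, mitotic kinases, spindle motors and the ubiquitin machinery that ends mitosis. Replication genes are known targets of E2F factors, and many mitosis genes carry a cell cycle homology region (CHR) and CCAAT boxes, which the DREAM complex, B-MYB with FOXM1, and NF-Y use. Adult microglia divide rarely in the healthy retina and renew themselves locally, and they are known to proliferate after injury to the optic nerve.

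The promoters of 4 members are shown. Ube2c was chosen for its promoter, whose 6 CCAAT matches were the most among the members, a number that Top2a shared. Aspm and Aurka were chosen as 2 members whose animals did not overlap between 12-month and 6-month DBA/2J. Mcm3 was chosen as the member that differed most by p between 12-month DBA/2J and Gpnmb+. Each runs 5′ to 3′ on the strand of the gene, from 250 bases before to 30 bases after the RefSeq start, build GRCm38.p6. Capitals mark CHR matches (TTTGAA or TTTAAA on either strand), CCAAT on either strand, read as ATTGG on the other, and E2F matches.
Aspm, chr1:139454523-139454802, plus strand: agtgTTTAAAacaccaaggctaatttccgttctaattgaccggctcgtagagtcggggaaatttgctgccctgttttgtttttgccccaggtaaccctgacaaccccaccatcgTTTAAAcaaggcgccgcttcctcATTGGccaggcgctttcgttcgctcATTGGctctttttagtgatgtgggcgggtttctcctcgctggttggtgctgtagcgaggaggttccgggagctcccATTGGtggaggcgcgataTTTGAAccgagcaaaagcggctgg
Aurka, chr2:172370541-172370820, minus strand: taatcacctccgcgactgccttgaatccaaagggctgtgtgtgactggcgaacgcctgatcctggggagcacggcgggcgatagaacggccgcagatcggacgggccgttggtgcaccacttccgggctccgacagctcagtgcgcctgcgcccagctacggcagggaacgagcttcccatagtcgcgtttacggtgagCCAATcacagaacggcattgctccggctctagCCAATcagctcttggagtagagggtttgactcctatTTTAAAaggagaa
Ube2c, chr2:164769679-164769958, plus strand: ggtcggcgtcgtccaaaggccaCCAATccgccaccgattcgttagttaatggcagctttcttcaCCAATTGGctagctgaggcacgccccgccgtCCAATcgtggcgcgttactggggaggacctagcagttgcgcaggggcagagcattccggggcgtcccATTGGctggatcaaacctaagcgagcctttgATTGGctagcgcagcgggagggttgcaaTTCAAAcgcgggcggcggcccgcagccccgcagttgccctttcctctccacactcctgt
Mcm3, chr1:20820283-20820562, minus strand: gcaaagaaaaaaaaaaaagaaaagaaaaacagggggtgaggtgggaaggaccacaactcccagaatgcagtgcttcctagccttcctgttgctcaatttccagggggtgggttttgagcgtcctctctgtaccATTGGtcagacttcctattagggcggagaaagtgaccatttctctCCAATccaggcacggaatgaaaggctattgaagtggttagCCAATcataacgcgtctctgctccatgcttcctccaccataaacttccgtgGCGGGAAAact
The Aspm window held 3 CHR and 3 CCAAT matches, the Ube2c window 1 CHR match and 6 CCAAT matches in which a CCAAT and an ATTGG overlap, and the Mcm3 window 3 CCAAT matches and an E2F match (GCGGGAAA) whose first base is base 20 of the transcript. The Aurka window held 1 CHR match, at base 18 of the transcript, and 2 CCAAT matches. How common such matches are among the members and among all promoters is given after the expression results.

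Across single retinas the members were detected unevenly, and the largest contrast lay between members of different roles. Pcna, the sliding clamp of DNA polymerase, had counts in 24 of 24 retinas. Mcm3, a subunit of the replicative helicase, and Hmgb2, a chromatin protein, had counts in 23. Bub1, a spindle checkpoint kinase, had counts in 5 retinas, the fewest of the members, and Rrm2, the inducible subunit of ribonucleotide reductase, and Aurka, the kinase of the spindle poles, in 8 each. On the deposited TPM scale, which divides by gene length, the median level over 24 retinas was 125.27 for Pcna, 35.5 for Tyms (thymidylate synthase), 19.1 for Hmgb2, 18.4 for Stmn1 (a tubulin-binding protein) and 1.06 for the proliferation marker Mki67. The 6 mitotic kinases, checkpoint and passenger members had medians from 0.0 to 1.39 TPM, and 5 of them were at 0 in the median retina. A member had a median CPM of 0 in 6 cases in 12-month DBA/2J, in 16 in Gpnmb+ and in 17 at 6 months. Bub1 was the 1 member without a count in any 6-month retina.

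**Figure D1:**
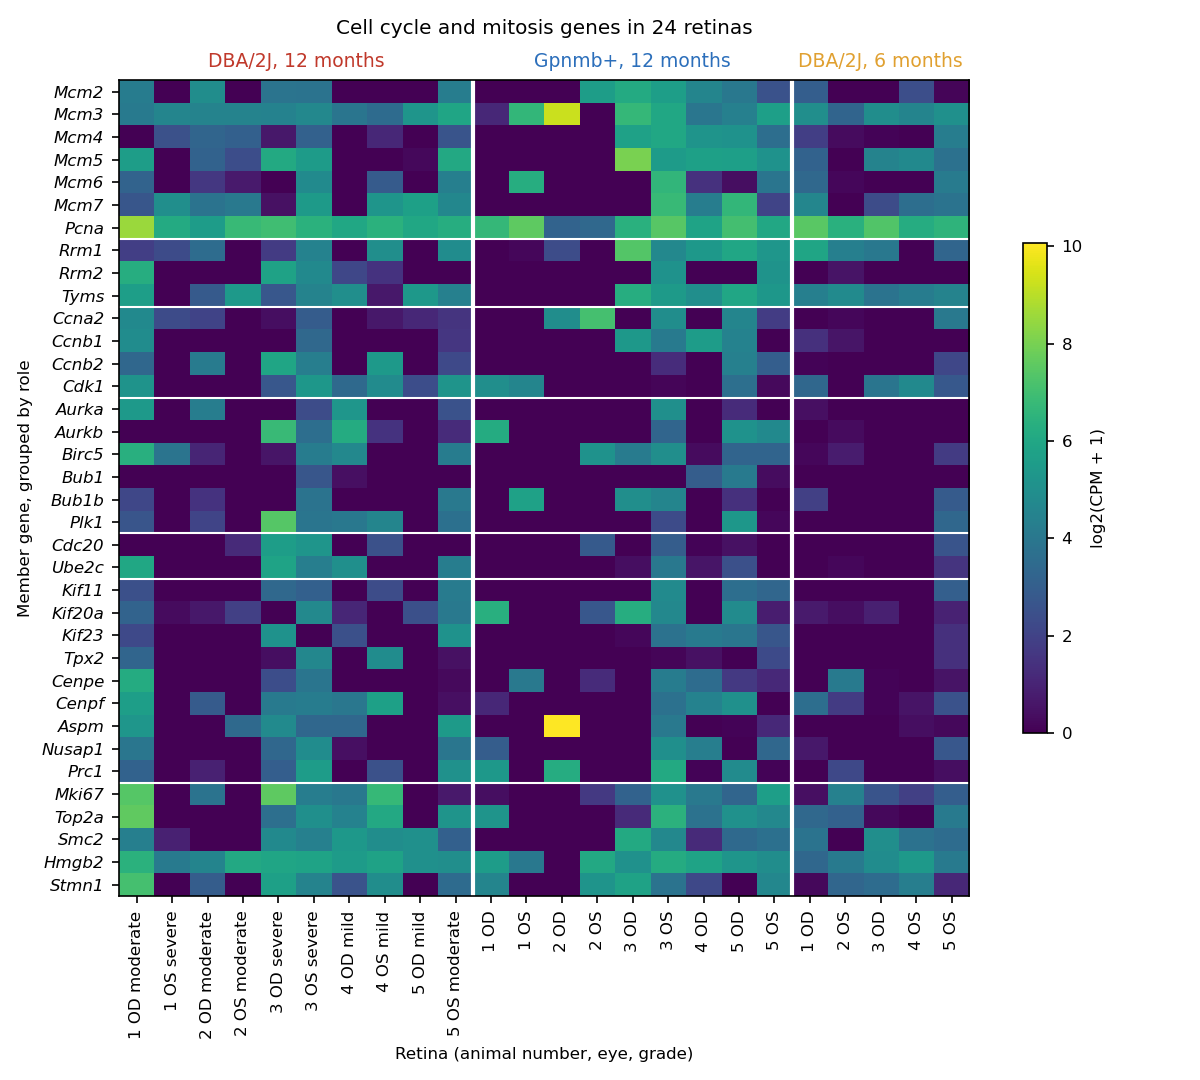
Level of each of the 36 members (rows, grouped by role) in each of the 24 retinas (columns, named by animal, eye and grade) as log2(CPM + 1), with CPM by library total. Pcna is coloured in every column, whereas the kinase and spindle rows are near 0 in most 6-month columns and in 1 eye of several 12-month animals.

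Per retina, the number of members with at least 1 count was 10 to 35 in 12-month DBA/2J (median 22), 6 to 35 in Gpnmb+ (median 18) and 13 to 31 at 6 months (median 20). The groups overlapped throughout in this number. The 21 mitosis members (cyclins and Cdk1, kinases and checkpoint, the partners of the anaphase promoting complex, and spindle genes) differed more in amount than in number. Their summed level was 9.8 to 555.9 CPM in 12-month DBA/2J (median 204.8), 75.4 to 1169.9 CPM in Gpnmb+ (median 184.1) and 14.9 to 72.9 CPM at 6 months (median 26.8). Every Gpnmb+ retina lay above every 6-month retina, while 12-month DBA/2J spanned both ranges. In several retinas of each group a single member made up most of the sum. In Gpnmb+, Aspm was 91.2% in 2 OD, Ccna2 74.3% in 2 OS and Bub1b 57.8% in 1 OS. At 6 months, Cdk1 was 97.2% in animal 4 and 93.3% in animal 3, and Cenpe 67.3% in animal 2. In 12-month DBA/2J, Birc5 was 76.8% in 1 OS and Aspm 70.9% in 2 OS. On the TPM scale the medians of the same sum were 146.2, 166.4 and 26, and the Gpnmb+ and 6-month ranges, from 55.7 and up to 60.8, overlapped. The 10 replication and nucleotide members did not show this order, with medians of 196.6, 361.7 and 217.1 CPM.

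The median number of genes detected was 13987 in the 6-month retinas, 12216 in 12-month DBA/2J and 9958 in Gpnmb+. Of the 21 mitosis members, 3 to 17 had counts in a retina at 6 months and 3 to 20 in each of the other groups, and retinas with 3 of them were found in all 3 groups. The 6-month retina of animal 5 stood apart from the other 4, with 17 mitosis members detected against 3 to 9.

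Eyes of 1 animal often differed as much as animals did. In 12-month DBA/2J animal 1, the moderate eye had counts for 32 members and the severe eye for 10, and 23 members had counts in the moderate eye alone. In animal 5, the mild eye had counts for 10 members and the moderate eye for 33, with 23 in the moderate eye alone. Animal 3, with 2 severe eyes, had 29 members in both. Among Gpnmb+ animals, 17 members of animal 3 had counts in OS alone and none in OD alone, and animal 5 shared 26 between its eyes. Other cells' markers also differed between such eyes. The moderate eye of animal 1 had 366.0 CPM of border macrophage markers and 3930.5 CPM of rod markers, against 25.9 and 598.8 CPM in its severe eye. The moderate eye of animal 5 had 138.7 CPM of border macrophage markers and 133.5 CPM of monocyte markers, against 6.8 and 46.0 CPM in its mild eye. The severe eye 3 OS, with 35 members, had 16.4 CPM of border macrophage markers and the highest sum of microglia markers in its group, 38904.4 CPM. The part of those markers in the difference between eyes was not tested.

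**Figure D2:**
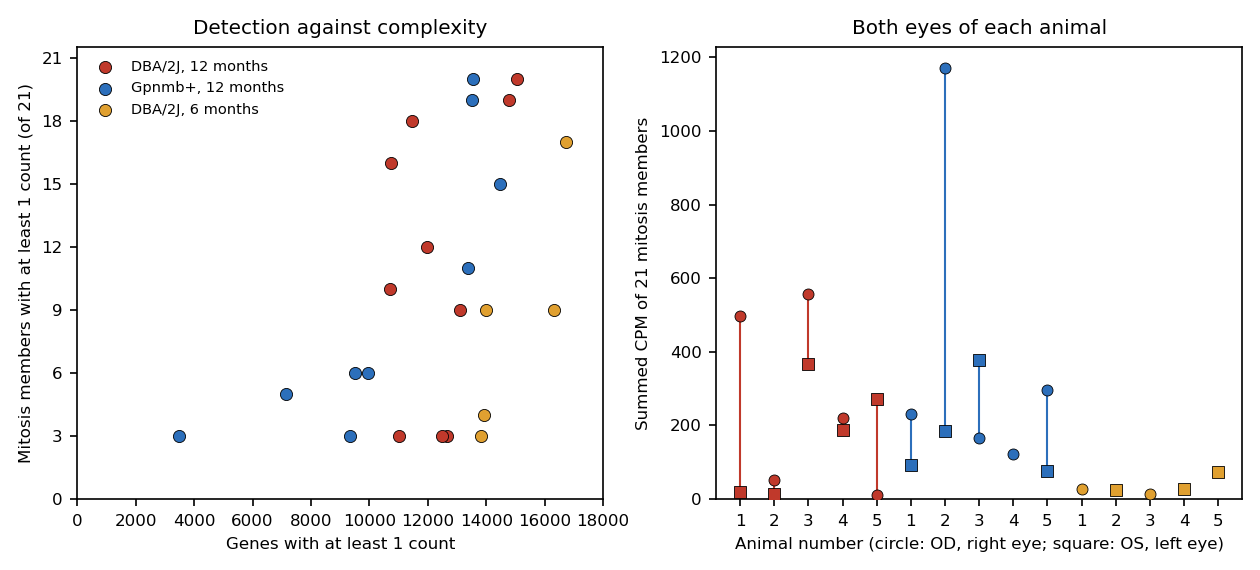
Left, mitosis members with at least 1 count (of 21) against all genes with at least 1 count, 1 point per retina. Right, summed CPM of the 21 mitosis members, with the eyes of an animal joined by a line; the 6-month retinas reach at most 72.9 CPM, and the Gpnmb+ retina at 1169.9 CPM is the library with 3469 genes.

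The comparison of 12-month with 6-month DBA/2J asks what differs as the disease of this strain advances, with age and stage of disease moving together. Counts were summed over the eyes of an animal and fitted with edgeR's quasi-likelihood test, with all 15 animals in 1 fit. The low-count filter kept 35 of the 36 members, Bub1 being the exception, and several of the 35 passed through the 12-month animals only, being at 0 in most 6-month animals. After Benjamini-Hochberg adjustment edgeR called 0 of 12977 genes (0%) and 0 members, the smallest adjusted p of a member being 0.72, whereas DESeq2 called 61 genes, none of them a member. At an unadjusted p under 0.05, 9 members were higher at 12 months and 0 lower, against 2.1% of all genes higher and 1.55% lower. The log2 fold change was positive for 33 members and negative for 2 (Pcna and Rrm1), against 50.6% of genes positive. Markers of rods and border macrophages lay on the same side. All 7 rod markers had positive log2 fold changes, from 0.72 to 1.4, none past an unadjusted p of 0.05, with median summed levels per retina of 559.1 CPM at 12 months and 303.2 CPM at 6 months. Of the 6 border macrophage markers, the 5 tested were positive, from 0.09 to 2.94, with medians of 39.0 and 2.2 CPM, and Lyve1 was at 0 at 6 months. Microglia markers had median sums of 31423.4 CPM at 12 months and 35351.5 CPM at 6 months. Median sums of other lists were lower at 12 months. Muller glia and astrocyte markers were at 304.0 against 370.6 CPM and endothelium markers at 12.1 against 37.9. Monocyte markers were at 11.0 against 12.3 CPM and pigment cell markers at 1.9 against 3.3. Of their markers in the fit, Pecam1 and Glul were negative, at -1.64 and -0.155, and Slc1a3, Kdr, Ccr2 and Best1 positive, from 0.109 to 0.835. The part of any of these markers in the difference of the members was not tested. The median over the 35 members was 2.26, and over all genes 0.01. With no filter all 36 members entered, with 34 positive and 11 higher at an unadjusted p under 0.05. The shares over all genes were not tallied for that fit, so these counts are not set against them. P-values here measure the spread between animals.

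Among the spindle genes, Aspm, which organises microtubules at the spindle poles, gave the smallest p of the members. Its level per animal, in TMM-scaled CPM, was 14.3, 3.68, 15.8, 7.86 and 22.8 in 12-month DBA/2J and 0, 0, 0, 0.306 and 0.151 at 6 months. Every 12-month animal was above every 6-month animal. The means were 12.9 ± 7.38 and 0.09 ± 0.14 CPM (SD, n = 5 each). For Aspm the log2 fold change was 7.05 (SE 2.13, edgeR's unadjusted p = 0.00395, adjusted p = 0.72). Pooled over retinas, 1470 counts stood against 7, a ratio of 157 with a counting interval of 76.0 to 391.1. Here and below, a counting interval covers counting error only and not the spread between retinas or animals.

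Kif20a, a kinesin of cytokinesis, had 3.28, 1.45, 16.98, 0.949 and 10.1 CPM in the 12-month animals and 0.579, 0.271, 0.779, 0 and 0.857 at 6 months. The groups did not overlap, although the lowest 12-month animal was 0.949 and the highest 6-month animal 0.857. Its log2 fold change was 3.70 (SE 1.52, unadjusted p = 0.0262). Prc1, which bundles microtubules of the spindle midzone, was at 3.05, 0.664, 32.9, 1.09 and 17.4 CPM at 12 months and at 0, 3.32, 0, 0 and 0.252 at 6 months. Here 12-month animals 1, 2 and 4 lay below the highest 6-month animal, and the log2 fold change was 3.94 (SE 1.80, unadjusted p = 0.0426). All 9 spindle members had positive log2 fold changes, with a median of 3.70.

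Of the mitotic kinases and their partners, Aurka had 15.8, 13.5, 2.68, 32.1 and 2.49 CPM in the 12-month animals and 0.316, 0, 0, 0 and 0 at 6 months. These groups did not overlap either, and the log2 fold change was 7.50 (SE 2.41, unadjusted p = 0.00614). Aspm, Aurka and Kif20a were the 3 members whose 12-month animals all lay above all 6-month animals, where 1.43% of the genes tested did so, and no member did so in the other direction (1.02% of genes). A 12-month value sums 2 eyes, whereas a 6-month value is 1 retina. By single retina the ages overlapped for all 3. At 12 months Aspm had counts in 6 of 10 retinas, Aurka in 5 and Kif20a in 8, the others being at 0. Aurkb, the kinase of the chromosomal passenger complex, was at 0, 0, 46.7, 60.2 and 0.697 CPM at 12 months and at 0, 0.203, 0, 0 and 0 at 6 months. Its level thus came from animals 3 and 4. The 6-month group held 3 counts of Aurkb in all against 1880 at 12 months, a ratio of 468 with a counting interval of 160 to 2274, and the log2 fold change was 8.84 (SE 2.70, unadjusted p = 0.00432). Birc5 (survivin), a partner of Aurkb in that complex, had 40.4, 0.784, 12.0, 20.8 and 9.29 CPM at 12 months and 0.105, 0.678, 0, 0 and 2.12 at 6 months. All 12-month animals but animal 2 were above the 6-month group, and the log2 fold change was 4.81 (SE 1.84, unadjusted p = 0.0174). Bub1, outside the fit, had 113 counts at 12 months and none at 6 months. Set against a floor of 3 counts over the group, its pooled level was at least 28.2-fold higher at 12 months. Of the 113 counts, 111 came from 1 library, the severe eye 3 OS, and 2 from the mild eye 4 OD.

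Ube2c, the ubiquitin-conjugating enzyme of the anaphase promoting complex, had 23.9, 0, 31.8, 26.03 and 9.69 CPM at 12 months and 0, 0.136, 0, 0 and 1.71 at 6 months. Animal 2 was the 12-month animal without a count, and the other 4 were above the 6-month group. Its log2 fold change was 5.58 (SE 2.21, unadjusted p = 0.0211). Cdc20, an activator of the same complex, was carried by 12-month animal 3 at 41.3 CPM, with at most 1.09 CPM in the other 4, and its log2 fold change was 3.21 (SE 2.45, unadjusted p = 0.207). Without that animal the log2 fold change of Cdc20 turned to -1.25.

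The cyclins differed among themselves, and none was past an unadjusted p of 0.05. Ccnb2, cyclin B2, had 3.51, 12.7, 33.4, 9.90 and 1.92 CPM at 12 months and 0.0526, 0, 0, 0 and 3.13 at 6 months. All 12-month animals but animal 5 were above the 6-month group, and the log2 fold change was 4.25 (SE 2.21, unadjusted p = 0.0713). Ccnb1, cyclin B1, had 10.8, 0, 6.31, 0 and 1.06 CPM at 12 months and 1.47, 0.474, 0, 0 and 0 at 6 months, with a log2 fold change of 3.19 (SE 2.13, unadjusted p = 0.152). Cdk1, the kinase these cyclins activate, had 13.1, 0, 27.7, 14.6 and 20.4 CPM against 8.48, 0, 13.1, 26.6 and 5.24 CPM, with a log2 fold change of 0.51 (SE 1.78). Ccna2, cyclin A2, was at 12.7, 2.29, 4.49, 0.136 and 1.46 CPM at 12 months and at 0, 0.136, 0, 0 and 14.4 CPM at 6 months, where animal 5 held nearly all of its level.

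Among the replication and nucleotide members, Rrm2 was the 1 past an unadjusted p of 0.05. It had 28.6, 0, 36.9, 3.25 and 0 CPM at 12 months and 0, 0.407, 0, 0 and 0 at 6 months. The 12-month level rested on animals 1, 3 and 4, and the log2 fold change was 7.29 (SE 2.78, unadjusted p = 0.0174). Its partner Rrm1, the constitutive subunit, had the lowest log2 fold change of the members at -0.96, with means of 9.72 ± 5.01 and 18.98 ± 20.95 CPM (SD, n = 5 each). Pcna was at 101 ± 51.2 CPM at 12 months and 110 ± 42.9 CPM at 6 months (SD, n = 5 each), and Tyms at 21.6 ± 4.62 and 18.6 ± 4.76 CPM. Both overlapped between ages. Mcm2, a subunit of the replicative helicase, had 6.79, 21.8, 13.4, 0 and 9.62 CPM at 12 months and 6.37, 0, 0, 4.28 and 0.101 at 6 months. All 12-month animals but animal 4 were above the 6-month group, and its log2 fold change was 2.26 (SE 1.70, unadjusted p = 0.201). For Mcm7, another subunit, it was 1.195 (SE 1.43, unadjusted p = 0.416). The 7 licensing and fork members had a median log2 fold change of 0.51, against 4.81 for the 5 kinase, checkpoint and passenger members tested; this difference between roles was not tested.

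Among the chromatin and chromosome members, Hmgb2 had 43.9, 41.0, 58.0, 50.03 and 29.5 CPM at 12 months and 8.48, 16.1, 26.9, 41.4 and 14.9 at 6 months. Each 12-month animal had counts and 3 of the 5 were above the 6-month group, with a log2 fold change of 1.05 (SE 0.49, unadjusted p = 0.0457). Mki67 had 65.0, 9.83, 77.7, 37.6 and 0.332 CPM at 12 months and 0.316, 19.3, 4.75, 2.75 and 6.40 at 6 months. The ages overlapped, 12-month animal 5 being just above the lowest 6-month animal, and the log2 fold change was 2.50 (SE 1.29, unadjusted p = 0.0691). Top2a, the topoisomerase that untangles sister DNA, had 73.1, 0, 24.7, 33.2 and 19.0 CPM against 8.74, 7.25, 0.156, 0 and 15.1, with a log2 fold change of 2.26 (SE 1.55, unadjusted p = 0.162).

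**Figure D3:**
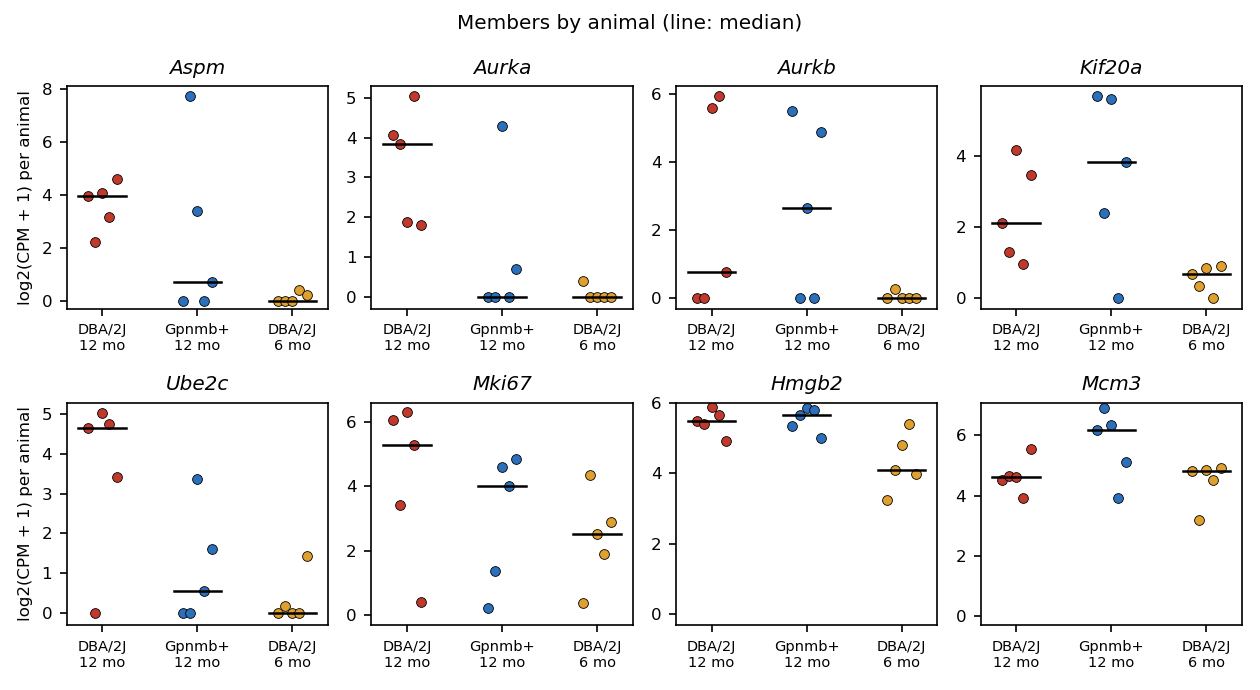
log2(CPM + 1) per animal, TMM-scaled, for 8 members, 5 points a group with the median as a line. Aspm, Aurka and Kif20a separate the 12-month from the 6-month DBA/2J animals, Mki67 does not, and the Aspm point far above the others is Gpnmb+ animal 2 at 208.8 CPM.

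The count of 9 moved with single animals and with the choice of retinas. The share of all genes past that p was not tallied for these alternatives, so whether other genes moved alike is not shown. It was 15 without 6-month animal 5, 6 without 12-month DBA/2J animal 3, and 4 with the retina of larger total in place of the sum of both eyes. Leaving out 5 retinas with fewer than 10000 genes, all of them Gpnmb+, gave 13, and leaving out the 2 retinas under 20% of the median total gave 7. Across 21 alternatives, Aurka and Birc5 had an unadjusted p under 0.05 in 21, Hmgb2 in 9 and Prc1 in 10.

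The comparison of 12-month DBA/2J with Gpnmb+ of the same age asks what the glaucoma genotype changes. edgeR called 0 of 12977 genes (0%) after adjustment and DESeq2 called 108, none of them a member. At an unadjusted p under 0.05, 0 members were higher and 1 lower in DBA/2J, against 2.76% and 2.45% of all genes. The log2 fold change was positive for 18 members and negative for 17, against 52.5% of genes positive, with a median of 0.03 (0.05 over all genes). No member's animals separated the groups, where 0.832% of genes did so with DBA/2J higher and 0.285% with DBA/2J lower.

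The 1 lower member was Mcm3, at 22.04, 23.9, 23.9, 14.1 and 46.3 CPM in DBA/2J and 71.9, 119, 81.2, 14.1 and 34.1 CPM in Gpnmb+. Gpnmb+ animals 1, 2 and 3 lay above all DBA/2J animals, animal 5 lay within their range, and animal 4 was level with the lowest of them. The log2 fold change was -1.30 (SE 0.58, unadjusted p = 0.0393, adjusted p = 0.904), and it turned to 0.27 with retinas fitted under a random animal effect. Of the Mcm3 counts of Gpnmb+ animal 2, all came from the eye with 3469 genes detected, at 609.5 CPM, the other eye having 0.

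Ube2c had 0, 0, 9.30, 0.478 and 2.08 CPM in Gpnmb+, and its means were 18.3 ± 13.1 CPM in DBA/2J and 2.37 ± 3.97 CPM in Gpnmb+ (SD, n = 5 each). Of the DBA/2J animals, 4 were above all Gpnmb+ animals and animal 2 was at 0, with a log2 fold change of 2.94 (SE 1.95, unadjusted p = 0.15). Mki67 was at 0.182, 1.60, 23.1, 15.3 and 27.9 CPM in Gpnmb+, so that 3 of 5 DBA/2J animals were above the group, and its log2 fold change was 1.48 (SE 1.25, unadjusted p = 0.252). Aspm was at 0, 208.8, 9.30, 0 and 0.626 CPM in Gpnmb+, and 1 animal set its mean. The log2 fold change was -1.76 with that animal and 2.37 without it. All 1043 counts in that animal came from the eye with 3469 genes, where rod markers reached 15826.0 CPM. Aurka was at 0, 0, 18.8, 0 and 0.626 CPM in Gpnmb+, with a log2 fold change of 1.77 (SE 1.86, unadjusted p = 0.355). Hmgb2 did not separate the strains at 44.5 ± 10.6 and 46.6 ± 10.8 CPM (SD, n = 5 each), with a log2 fold change of -0.07 (SE 0.48).

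**Figure D4:**
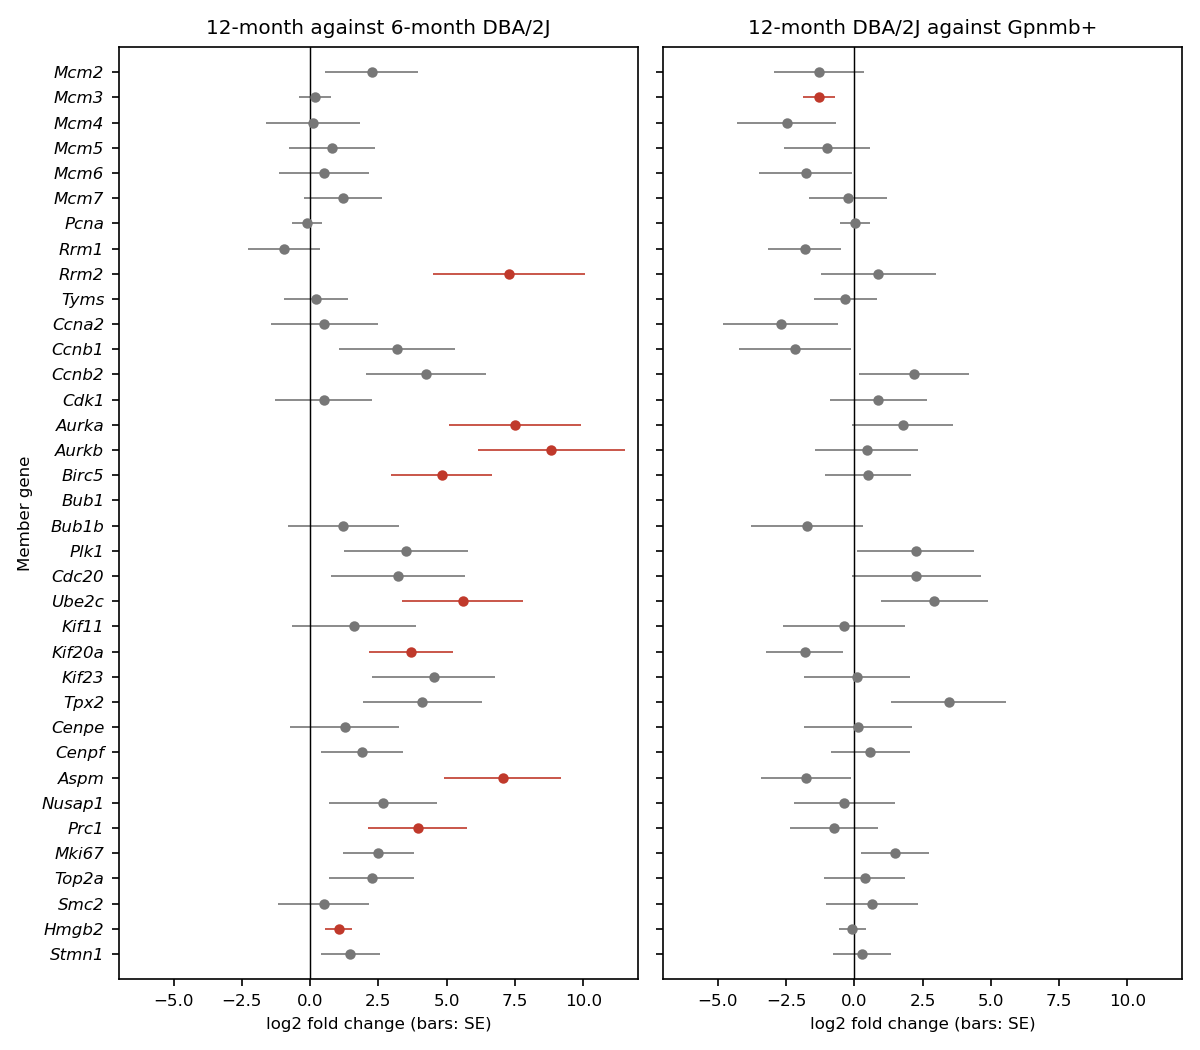
log2 fold change with its SE for each member in 2 comparisons of the 15-animal fit, on the same axis; red marks an unadjusted p under 0.05, and Bub1 has no value. On the left 33 of 35 points lie above 0 and 9 are red, and on the right the points lie on both sides of 0 and Mcm3 alone is red.

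The comparison of 6-month DBA/2J with Gpnmb+ differs in age and genotype together, which cannot be told apart, and it shares its 6-month animals with the comparison of ages. edgeR called 0 of 12977 genes (0%). DESeq2 called 57 of the 12977, of which 1 was among the 35 members, Kif20a (log2 fold change -5.57, adjusted p = 0.0055). At an unadjusted p under 0.05, 10 members were lower at 6 months and 0 higher, against 1.57% of genes lower and 2.2% higher. All 7 rod markers had negative log2 fold changes as well, from -2.38 to -1.45, Sag being the 1 at an unadjusted p under 0.05 (0.0481), and median sums of 303.2 CPM at 6 months and 589.3 CPM in Gpnmb+. Of the 5 border macrophage markers tested 4 were negative and F13a1 was positive at 4.19, with medians of 2.2 and 14.6 CPM. Microglia markers had median sums of 35351.5 CPM at 6 months and 22313.3 CPM in Gpnmb+, where they ranged from 13848.3 to 35576.8 CPM. Median sums of other lists were higher at 6 months than in Gpnmb+. Muller glia and astrocyte markers were at 370.6 against 269.4 CPM and endothelium markers at 37.9 against 9.3. Monocyte markers were at 12.3 against 12.1 CPM and pigment cell markers at 3.3 against 2.4. Of their markers in the fit, Slc1a3 and Pecam1 were negative, at -0.595 and -0.049, and Glul, Kdr, Ccr2 and Best1 positive, from 0.17 to 1.208. The part of any of these markers in the result was not tested. The 10 members were Aspm, Kif20a, Aurkb, Aurka, Mcm3, Prc1, Birc5, Rrm2, Hmgb2 and Ccnb1. Kif20a had 50.4, 4.21, 47.6, 0 and 13.1 CPM in Gpnmb+, all but animal 4 above the 6-month group, with a log2 fold change of -5.51 (SE 1.66, p = 0.00384, adjusted p = 0.782). The median of the 35 members was -1.99, with 32 negative, against 48.7% of genes negative. As between ages, several of the 35 were at 0 in most 6-month animals and passed the low-count filter through the 12-month animals only. Their negative sign here was thus largely set by the filter. No member's animals separated these groups, where 0.239% of genes did so with the 6-month animals lower and 0.878% with them higher. The count of 10 became 17 without 6-month animal 5, 5 without Gpnmb+ animal 3, and 3 with the compared groups fitted alone. In order of group means, under the same limit, 6-month DBA/2J was lowest for 31 of the 35 members. The highest mean was in 12-month DBA/2J for 17, in Gpnmb+ for 17 and at 6 months for 1.

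For the grades, retinas of 1 animal were summed where they shared a grade, giving 17 sums in 1 fit of 15959 genes in which all 36 members were tested. Mild stood on 2 sums, moderate on 3 and severe on 2, and animals 1 and 5 entered under 2 grades. edgeR called 0 genes (0%) against Gpnmb+ in mild, moderate and severe, with smallest adjusted p of 0.795, 0.589 and 0.982 among members. Of the retinas, mild ones had 10, 21 and 23 members detected, moderate ones 32, 21, 11 and 33, and severe ones 10, 30 and 35. Every grade thus held 1 retina with 10 or 11 members beside others with at least 21. The summed mitosis CPM spanned 9.8 to 220.8 in mild, 13.9 to 497.9 in moderate and 17.9 to 555.9 in severe retinas, and the grades overlapped.

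In mild retinas, 4 members were lower than in Gpnmb+ at an unadjusted p under 0.05 and 0 higher, against 2.75% and 2.67% of genes. They were Mcm2 and Mcm5 (subunits of the replicative helicase), Ccnb1, and Bub1b (BubR1, of the spindle checkpoint). Mcm2, Ccnb1 and Bub1b had no count in the 3 mild retinas. Set against a floor of 3 counts over the group, their pooled levels in Gpnmb+ were at least 151-fold, 120-fold and 75.6-fold higher. Mcm5 had 2 counts in mild retinas and 4218 in Gpnmb+, a ratio of 542 with a counting interval of 150 to 4480. Mcm5 in Gpnmb+ was itself uneven, at 0, 0, 136, 49.2 and 39.5 CPM, and Mcm2 at 0, 33.4, 58.0, 21.7 and 9.41 CPM. Ccnb1 and Bub1b each had counts in 4 of the 9 Gpnmb+ retinas, so that their median by retina was 0 CPM there too. DESeq2 called 600 of the 15959 genes here, with Cenpe, Mcm2 and Mcm5 among the 36 members. Cenpe, like Mcm2, had no count in the mild retinas, and its DESeq2 log2 fold change of -22.5 rests on that 0. The 36 members had 12 positive and 24 negative log2 fold changes, with a median of -1.64 that includes members at 0 counts in mild, against 53.2% of genes negative.

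Moderate and severe retinas had 0 members on either side at an unadjusted p under 0.05, against 4.75% and 3.08% of genes higher and 3.71% and 1.2% lower. The log2 fold change was positive for 19 of 36 members in moderate and 14 in severe, against 47.6% and 46% of genes. DESeq2 called 296 and 277 genes there, no member among them. Moderate against the mean of mild and severe gave 3 members higher (Mcm2, Cenpe, a kinetochore motor, and Mcm5) and 0 lower, against 5.29% and 2.36% of genes. edgeR called 0 genes (0%) after adjustment. DESeq2 called 404 of the same 15959 genes, of which 1 was among the 36 members, Cenpe. Of the 357 Cenpe counts in moderate retinas, 354 came from the moderate eye of animal 1. At 71.0 CPM by library total, that eye had the highest Cenpe of the 24 retinas. Of the 36 members, 28 had a positive log2 fold change, against 53.5% of genes. Their median was 1.48, and it was -0.17, with 0 higher, without DBA/2J animal 1. That animal's moderate eye had the highest Pcna, Top2a, Hmgb2 and Stmn1 of the 24 retinas by CPM by library total, with 371.0, 192.2, 84.9 and 137.1. The trend over mild, moderate and severe, scored 0, 1 and 2, gave 0 of 12019 genes (0%) by edgeR, 26 by DESeq2, and 0 members at an unadjusted p under 0.05, against 0.815% of genes higher and 0.616% lower. Its 33 tested members had a median log2 change of 0.70 a step, and 25 were positive, against 50.1% of genes.

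The other genes of the pathway were read from 4 lists. Of 38 other mitosis genes, 30 were tested between ages, and 1 was higher at 12 months at an unadjusted p under 0.05, Pbk, a mitotic kinase, with a log2 fold change of 6.99 (SE 2.05, p = 0.00317, adjusted p = 0.72). Hmmr, a spindle protein, followed at 4.18 (SE 2.10, unadjusted p = 0.062) and Kif2c, a kinesin that depolymerises microtubules, at 2.94 (SE 2.02, unadjusted p = 0.161). The list's median was 0.79, with 23 positive. Of 28 other replication genes, 24 were tested and none passed, with a median of 0.57, and Prim1, a primase subunit, had the smallest p (log2 fold change 2.61, unadjusted p = 0.099). The 18 other genes of G1 and S entry, all tested, had a median of -0.19 and none passed. Among them E2f8, an atypical E2F factor, was at 3.59 (SE 2.10), Myc at -0.53 (SE 0.34) and Cdk6 at -0.54 (SE 0.38).

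Of 20 cell cycle inhibitors and quiescence genes, 16 were tested. Between ages 1 was lower at 12 months at an unadjusted p under 0.05, Btg2, an antiproliferative immediate early gene, with a log2 fold change of -0.81 (SE 0.33, p = 0.024, adjusted p = 1). Against Gpnmb+ 2 were lower in 12-month DBA/2J, Btg2 at -1.20 (SE 0.33, p = 0.00187, adjusted p = 0.555) and Cdkn1b, the inhibitor p27, at -1.28 (SE 0.49, p = 0.0184, adjusted p = 0.704). Cdkn1a, the inhibitor p21, was at -1.34 (SE 0.67, unadjusted p = 0.0621). In that comparison the other replication, mitosis and G1 lists had no gene past an unadjusted p under 0.05, with medians of -0.36, -0.40 and -0.88. Cdk4, a kinase of G1, had the smallest p of the G1 genes, at -0.92 (SE 0.47).

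Promoter sequences of 250 bases before to 50 after the start were in the RefSeq table for 30 of the 36 members, and Aurkb, Ccna2, Kif20a, Mcm4, Stmn1 and Tpx2 were not matched. A CHR match (TTTGAA or TTTAAA on either strand, TTTAAA being its own reverse complement) was in 22 of 30 member promoters (73.33%) and in 27.82% of all 27025 promoters of the table. CCAAT on either strand was in 27 of 30 against 37.92% of all promoters, and at least 2 such matches were in 17 of 30 (56.67%) against 12.16%. An E2F match (TTTNGCGC, which includes TTTGGCGC, or TTTCCCGC, on either strand) was in 5 of 30 (16.67%) against 2.44%. Of those 5, 4 were licensing and fork members (Mcm3, Mcm5, Mcm6 and Mcm7) and 1 was Cdk1. CHR matches were in 2 of 6 licensing and fork members and in 6 of 7 spindle members. All 3 cyclins and Cdk1 members in the table, and both partners of the anaphase promoting complex, had a CHR and a CCAAT match. A match describes letters in the window and is no evidence of a bound factor.

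**Figure D5:**
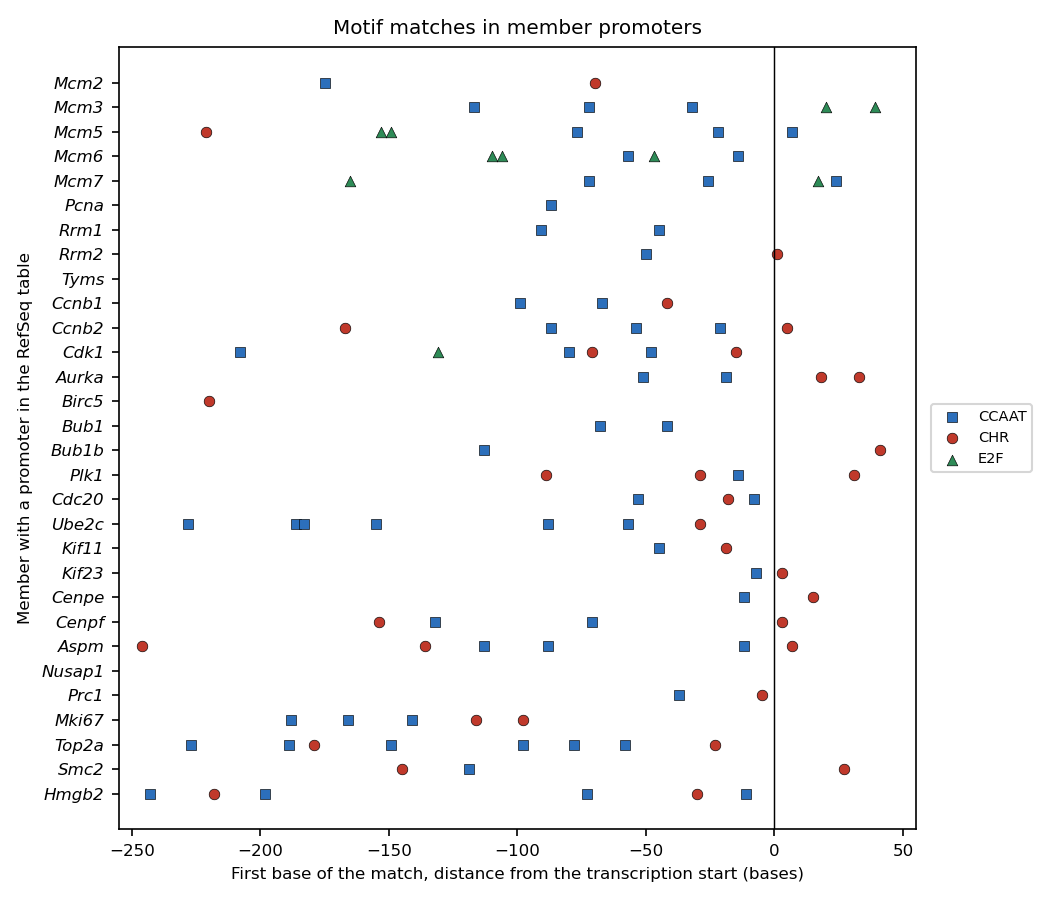
Position of each CCAAT, CHR and E2F match in the 30 member promoters found in the RefSeq table, as the distance of its first base from the transcription start, with genes ordered by role. E2F triangles lie in the rows of Mcm3, Mcm5, Mcm6, Mcm7 and Cdk1, and CHR circles in 22 rows.

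Some member counts may hold reads of other genes. Annotated coding genes overlap the spans of Mcm7 (Cops6 and Ap4m1), Ccna2 (Exosc9), Cdc20 (Elovl1), Ube2c (Tnnc2), Kif20a (Cdc23), Nusap1 (Oip5) and Prc1 (Rccd1), and whether the counting used strand is not given in the sources used here. Pseudogenes of Pcna, Ccnb1 and Ccnb2 held 1709, 155 and 294 counts over all retinas, so that the sharing of reads with near-identical copies makes these 3 members uncertain.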

How the data were processed

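The authors deposited 1 table per retina with expected counts, estimated read numbers per gene that need not be whole, beside TPM, per the file headers. Named in the submitters' processing notes, without the step each served, are R 4.0.3, DESeq2 1.30.1, Salmon 1.4.0 and the genome build mm10. The annotation release and strand setting were not given in the sources used here. A deposited series table with 24 columns of per-sample values was not used. The members and the other lists were chosen with earlier results of these data known.

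Expected counts were rounded, summed per animal (15 animals), per animal and grade (17 sums), or for the grade trend per grade sum of 12-month DBA/2J, and fitted for all genes with edgeR 4.0.16 (R 4.3.3) by its two-sided quasi-likelihood F test with TMM scaling and filterByExpr (minimum count 10, minimum total 15). Benjamini-Hochberg adjustment covered every gene tested in a comparison, and the threshold was 0.05. The SE printed with an edgeR log2 fold change is its absolute value divided by the square root of the F statistic. It is not a standard error given by the model. CPM per animal are TMM-scaled, and CPM per retina are by library total. Ratios of pooled counts use library totals, and their exact intervals cover counting error only, as does the floor of 3 counts. The script was tested on simulated counts. Coordinates are from the GRCm38 annotation, the build mm10 also names, and promoters from RefSeq on GRCm38.p6.

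The members described are the 2 members of each role with the highest average log2 CPM, Mki67 and Top2a, and members at an unadjusted p under 0.05 in 12-month DBA/2J against Gpnmb+ or 6 months, or in a grade against Gpnmb+, 22 in all, some of them by mean, range or pooled level rather than by animal. From each other list up to 3 genes with the smallest p in the 2 main comparisons are named. Bub1, Ccnb2, Cenpe, Mcm7, Stmn1 and the promoters printed were named after their values were seen. Alternatives were DESeq2 1.42.0, RLE scaling, no filter, a stricter filter (50 counts in 5 sums or more), retinas as replicates, retinas with a random animal effect (limma 3.58.1, voomLmFit), the eye of larger total, fits of only the compared groups, and a block on the animal number. Further alternatives dropped each animal in turn, the 2 retinas whose total was below 20% of the median, or the 5 retinas with fewer than 10000 genes. Over 91 pairs of retinas within groups, chi-square divided by its degrees of freedom was at least 88.5, and every library was kept as a separate sample.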

Additional observations from a re-analysis of the deposited data

Results flagged for a closer look

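Of 75 sets of values, 16 had a sample far from the others of its group. The sets, per group, were levels by animal of the members described and, by retina, the members detected, their summed level and the summed mitosis level. The cutoff is passed by chance in about 1 in 20 sets of normally distributed values, which sets at 0 in most animals are not. Most of the 16 were 1 animal with counts in a group otherwise at or near 0. In 12-month DBA/2J, Pcna was at 189.2 CPM in animal 1, the next animal being at 100.4, and Cdc20 at 41.29 CPM in animal 3, the next being at 1.08. In Gpnmb+, animal 2 was at 208.8 CPM for Aspm and 108.1 CPM for Ccna2, the next animals being at 9.3 and 17.58, animal 1 was at 35.61 CPM for Cdk1, and animal 3 was at 18.79 CPM for Aurka and 9.3 CPM for Ube2c. At 6 months, animal 5 was at 14.42 CPM for Ccna2, 4.59 CPM for Cdc20 and 1.71 CPM for Ube2c, animal 2 was at 3.32 CPM for Prc1, 0.41 CPM for Rrm2 and 0.2 CPM for Aurkb, and animal 1 was at 0.32 CPM for Aurka. By retina, the summed level of the 21 mitosis members stood apart in Gpnmb+ 2 OD, at 1169.9 CPM against 377.6 in the next retina, and Aspm made up 91.2% of the former. At 6 months it stood apart in the retina of animal 5, at 72.9 CPM against 27.5 in the next.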

How the results depend on the processing

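Low counts and the number of animals limit these results. Bub1, Aurkb, Aurka, Rrm2 and Aspm had 0 to 7 counts in the whole 6-month group, whose library totals were 12043911 to 17993059. With 5 animals a group the standard error of Aurka between ages was 2.41 log2 units. The cause of the changes below was not tested. "Past p" stands for an unadjusted p under 0.05, whose share over all genes was not tallied for the alternatives. With DESeq2 the genes called, 0 in the edgeR fits of the report, were 108 in 12-month DBA/2J against Gpnmb+, 61 between ages, 57 in 6-month DBA/2J against Gpnmb+, 600, 296 and 277 in mild, moderate and severe, 404 in moderate against mild and severe, and 26 in the trend. Members past p were then 10 lower in mild, 1 lower in severe and 4 higher in the trend. Without the low-count filter 2 genes were called between ages, 31, 33 and 10 by grade, 33 in moderate against mild and severe, and 6 in the trend, and members past p were 0 lower in 12-month DBA/2J against Gpnmb+, 8 lower in mild, 2 higher and 2 lower in moderate, 7 higher and 1 lower in moderate against mild and severe, and 2 higher in the trend. With a random animal effect 8, 5 and 40 genes were called in the 3 comparisons of groups, 3, 13 and 32 by grade, 4 in moderate against mild and severe and 2 in the trend, and members past p were 1 higher and 0 lower in 12-month DBA/2J against Gpnmb+, 2 lower in 6-month DBA/2J against Gpnmb+, and 1 higher each in mild, moderate and moderate against mild and severe. With each retina as a replicate, members past p were 4 lower in 6-month DBA/2J against Gpnmb+ and 1 lower in moderate, where 1 gene was called, and in moderate against mild and severe. With the retina of larger total they were 0 lower in 12-month DBA/2J against Gpnmb+, 4 higher between ages, 3 lower in 6-month DBA/2J against Gpnmb+, 0 in mild, 1 lower in moderate and 0 higher in moderate against mild and severe. The compared groups alone gave 0 and 3 lower in 12-month and 6-month DBA/2J against Gpnmb+. Dropping the 2 retinas of lowest total gave 0 lower in 12-month DBA/2J against Gpnmb+ and 8 in mild, and dropping those with fewer than 10000 genes gave 0 in the former, 1 lower in moderate and 5 higher in moderate against mild and severe. On the TPM scale the 6-month median of the summed member level was 84.7% of the highest group's, against 60.3% in CPM.

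Animal numbers are shared between groups but did not pair animals, as correlations of same-numbered animals ran from -0.046 to 0.088. With the animal number as a replicate block, members past p were 3 higher and 0 lower in 12-month DBA/2J against Gpnmb+, 10 higher between ages, 4 lower in 6-month DBA/2J against Gpnmb+, 2 lower in mild, 2 higher in moderate and 1 lower in the trend, and 4 and 1 genes were called in moderate and severe. In that fit the log2 fold changes that turned sign were, in 12-month DBA/2J against Gpnmb+, Mcm5 (0.93), Tyms (0.22), Aurkb (-0.44) and Aspm (1.98), and in 6-month DBA/2J against Gpnmb+, Tyms (0.10).

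Other log2 fold changes of 12-month DBA/2J against Gpnmb+ that turned sign were Pcna (-0.004 with DESeq2 and with RLE scaling, -0.70 with the larger retina, -0.073 without retinas of few genes), Hmgb2 (0.30 with each retina, 0.38 with the random effect), Mcm3 (0.27), Tyms (1.23), Aurkb (-0.31), Aspm (1.74) and Top2a (-0.55) with the random effect, Kif20a (0.47), Aspm (1.87), Prc1 (0.23), Mki67 (-0.94) and Top2a (-0.47) with the larger retina, Aspm (2.74) without retinas of low total, and Rrm2 (-0.28), Aspm (1.28) and Top2a (-0.48) without retinas of few genes. Between ages Pcna (0.083 with each retina), Mcm5 (-0.32), Tyms (-0.96) and Cdk1 (-0.084) with the random effect and Tyms (-0.20) with the larger retina turned. In 6-month DBA/2J against Gpnmb+, Mcm3 (0.016) and Tyms (2.19) with the random effect and Pcna (-0.067) with the larger retina turned. In the edgeR fits of the report no member had passed the adjusted threshold; without the low-count filter Mcm5 did in mild (log2 fold change -8.93, edgeR adjusted p = 0.023).

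Leaving out each animal in turn gave these ranges. In 12-month DBA/2J against Gpnmb+, 0 to 1 genes were called, members past p were 0 to 2 higher and 0 to 1 lower, and log2 fold changes ran from -1.59 to 0.028 for Mcm5, -0.33 to 0.44 for Pcna, -0.65 to 0.16 for Tyms, -0.39 to 1.34 for Aurkb, -0.14 to 0.99 for Birc5, -2.18 to 2.99 for Cdc20, -2.08 to 2.37 for Aspm, -0.26 to 0.94 for Top2a and -0.18 to 0.074 for Hmgb2. Between ages, members past p were 6 to 15 higher, and log2 fold changes ran from -0.11 to 0.34 for Mcm3, -0.49 to 0.09 for Pcna, -0.47 to 6.70 for Ccna2 and -1.25 to 10.19 for Cdc20. In 6-month DBA/2J against Gpnmb+, members past p were 5 to 17 lower, the median of the members ran from -4.45 to -1.37, Pcna from -0.14 to 0.57 and Cdk1 from -0.32 to 2.90. Genes called were 0 to 2 in mild, 0 to 4 in moderate and 0 to 1 in moderate against mild and severe. Members past p were 0 to 5 lower in mild, 0 to 1 lower in moderate, 0 to 3 lower in severe, 0 to 10 higher and 0 to 1 lower in moderate against mild and severe, and 0 to 1 in each direction in the trend. The median of the members ran from -9.50 to -1.01 in mild, -9.36 to 0.34 in severe and -0.17 to 5.91 in moderate against mild and severe.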
